A study of Mus musculus with 11 samples.

Results

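The genes described here encode the proteins of the cytosolic ribosome. They were chosen by name, as symbols made of Rpl or Rps, a number and at most an ending a, x or l, together with Rpsa, Rplp0, Rplp1 and Rplp2; pseudogene symbols and the S6 kinases were left out. The rule found 82 of 32868 named genes, 51 of the large and 31 of the small subunit. The naming rule leaves out some ribosomal genes with other names, such as Fau, Rack1 and Rpl36al. The data are bulk RNA-seq of primary fibroblasts from neonatal mouse lung that had been sorted by flow cytometry; the sorting markers are not given in the labels. PAD2KO fibroblasts are labelled as knockouts of peptidylarginine deiminase 2, the enzyme encoded by Padi2 that turns arginine residues of proteins into citrulline. The groups were PAD2KO of batch 2 (2 libraries, PAD2KO 6 and 7), WT of batch 2 (3 libraries, WT 5 to 7), PAD2KO of batch 1 (3 libraries, PAD2KO 1 to 3) and WT of batch 1 (3 libraries, WT 1, 3 and 4). The study's title also speaks of TNFa, but the labels give no stimulation for any library, so whether a library was stimulated is not known here. The labels do not say what allele was deleted, whether cells of several animals were pooled, or what a batch is.

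A ribosome joins a small subunit, which reads the mRNA, and a large subunit, which links the amino acids. Most ribosomal proteins are present once in the particle, and cells make them in step. Their mRNAs in vertebrates typically begin with a cytidine followed by a run of pyrimidines, the terminal oligopyrimidine (TOP) motif, through which mTORC1 adjusts their translation. Fibroblasts that grow and secrete matrix need many ribosomes, and ribosomal protein mRNAs are among the most abundant of such cells.

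The table held 962633 (WT 7) to 1421243 (PAD2KO 2) estimated counts a library for named genes, and the nuclear 18S rRNA gene Rn18s took 8.52% to 12.1% of them. Nothing in the labels says that libraries of a group came from separate animals, so the spread behind each p-value may be a technical one. Padi2 had 0 and 4 counts in the PAD2KO libraries of batch 2, against 1, 2 and 0 in the WT libraries. It had 1, 0 and 4 counts in the PAD2KO libraries of batch 1, against 0 in all 3 WT libraries. These values lie near the limit that a count of 0 allows, 3 counts, so Padi2 could not check the genotype labels here. As a sum, fibroblast genes were abundant in every library. The summed level of 13 markers was 10310 to 12480 CPM (counts scaled to library size) in batch 2. In batch 1 it was 16760 to 23150 CPM. Not every marker was abundant: Lum had 2 to 19 counts a library, and in batch 2 Tcf21 had 0 to 4 and Postn 0 or 1. Of 11 epithelial markers, Sftpc, Scgb1a1 and Nkx2-1 were at 0 counts in all libraries, but Krt18 had 10.55 to 37.94 CPM. The 8 endothelial markers summed to 7.73 to 23.2 CPM.

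Of the 82 members, 77 passed the filter on low counts and were tested, 46 of the large and all 31 of the small subunit. Rpl10l, Rpl3l, Rpl32l and Rpl6l had no count in any library. Rpl10l is known from testis and Rpl3l from heart and skeletal muscle. Rpl39l, a testis-enriched relative of Rpl39, had 4 counts over all 11 libraries. Each of the 77 had counts in all 11 libraries, from 17 counts upwards.

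Per transcript length the members spanned a wide range of levels. The median over libraries, in TPM (scaled to transcript length and library), was 1092 TPM for the middle member, 1235 TPM for the middle small subunit member and 956 TPM for the middle large subunit member. Rpl41, which encodes the smallest ribosomal protein, stood highest at a median of 3354 TPM. The stalk genes Rplp1 and Rplp0 stood at 3040 and 2615 TPM. Of the 77, 41 had a median of at least 1000 TPM and 4 lay under 300 TPM: Rpl27a at 239 TPM, Rpl35 at 225 TPM, Rpl12 at 69.6 TPM and Rpl5 at 37.8 TPM. Near-identical copies elsewhere in the genome took counts that may belong to Rpl12 and Rpl27a, as described further on. Copies of Rpl5 held 1.82% of its summed counts. Whether entries without a symbol, which were left out, hold reads of Rpl5 was not tested. Within a group, the median SD between libraries was 0.149 on the log2(CPM + 1) scale for members and 0.246 for all tested genes. Members and all genes were not matched for level. Counting error adds to this SD at low counts, so a tighter control of members cannot be read from it. Rps27 (1.45), Rpl5 (0.52), Rps2 (0.42) and Rpl35 (0.33) varied most.

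The start regions show how far the TOP motif can be read from annotation. Of the 82 members, 61 had a start region in RefSeq (GRCm38.p6). A run of at least 6 bases that begins with C and holds only C and T was searched on the gene's strand, within 15 bases before and 15 bases from the annotated start on. It was found for 36 of the 61 members (59.0%), against 25.5% of all 27025 genes with a RefSeq start region, whether expressed here or not. A gene with several starts was counted if any of them had the letters sought. The letters CGGAAG, a core of ETS family sites, were searched on both strands over the whole 300 bases and were present for 41 of 61 members (67.2%), against 18.8% of all genes. AAGATGG, a core of YY1 sites, was present for 9 of 61 members (14.8%), against 7.28% of all genes. The windows below belong to 4 members that were higher in batch 2 in both genotypes, and are shown to set starts with and without a run side by side; capitals mark the longest run of C and T where it reaches 6 bases.
Rpl14, chr9:120571502-120571531, plus strand: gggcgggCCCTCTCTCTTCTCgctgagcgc
Rpl28, chr7:4792950-4792979, plus strand: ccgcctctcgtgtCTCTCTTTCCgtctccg
Rpl27, chr11:101442230-101442259, plus strand: acgctctgttcctgtctgctgctcgtgctg
Rpsa, chr9:120127751-120127780, plus strand: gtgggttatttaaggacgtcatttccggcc
Rpl14 and Rpl28 carry runs of 14 and 10 bases at their annotated start, and the windows of Rpl27 and Rpsa hold none of 6 bases. A missing run says only that these letters are not in that window.

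Members took a larger share of the counts in every batch 2 library than in any batch 1 library. In PAD2KO the share was 3.43% and 3.62% in batch 2, against 3.08%, 3.29% and 2.87% in batch 1. In WT the share was 3.55%, 3.53% and 4.03% in batch 2, against 2.88%, 2.75% and 3.21% in batch 1. WT 7, the library with the fewest counts, had the highest share. The means were 3.53% ± 0.133 (SD, n = 2) in PAD2KO and 3.70% ± 0.286 (SD, n = 3) in WT of batch 2, and 3.08% ± 0.209 and 2.95% ± 0.233 (SD, n = 3 each) in PAD2KO and WT of batch 1. Within each batch, the ranges of the genotypes overlapped. As a share of TPM the 82 genes made up 10.7% ± 0.430 (SD, n = 2) in PAD2KO and 10.99% ± 0.677 (SD, n = 3) in WT of batch 2. In batch 1 they made up 9.67% ± 0.703 in PAD2KO and 9.46% ± 0.635 in WT (SD, n = 3 each). The large subunit took 1.43 to 1.58 times the counts of the small subunit in all 11 libraries.

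**Figure D1:**
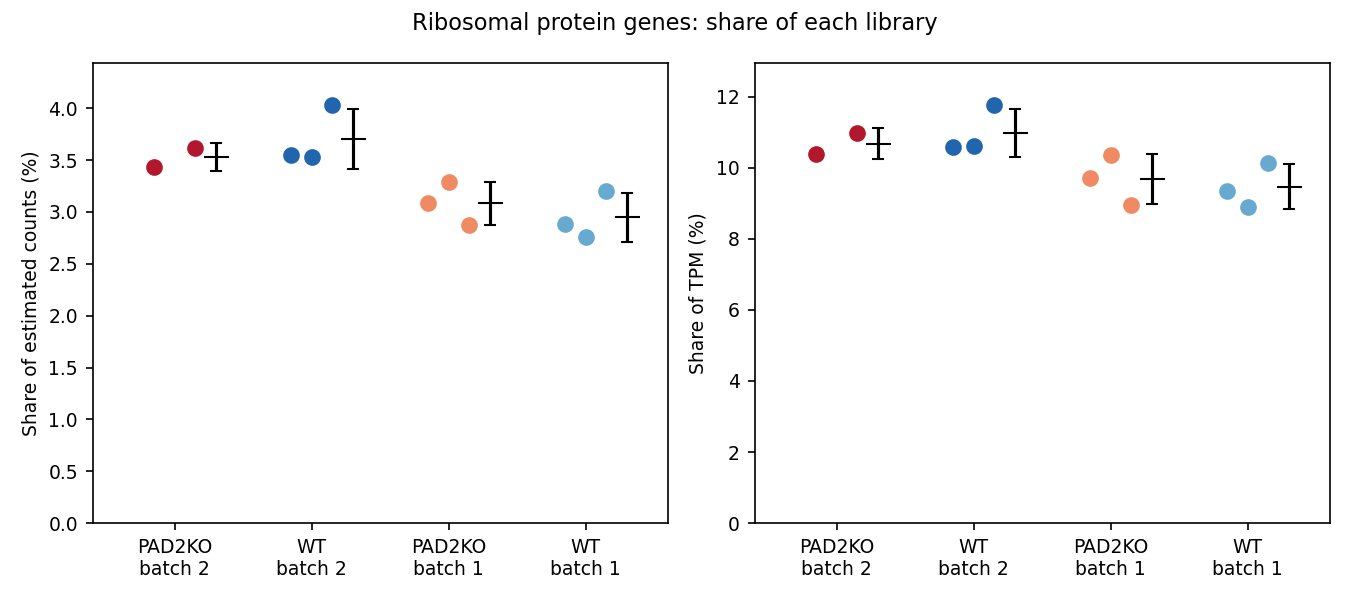
Share of each library's estimated counts (left) and TPM (right) that fell on the 82 ribosomal protein genes, in percent, by group; points are libraries, and the black bar beside them is the mean ± SD. By counts, all 5 batch 2 libraries lie between 3.43% and 4.03%, above the 6 batch 1 libraries at 2.75% to 3.29%.

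**Figure D2:**
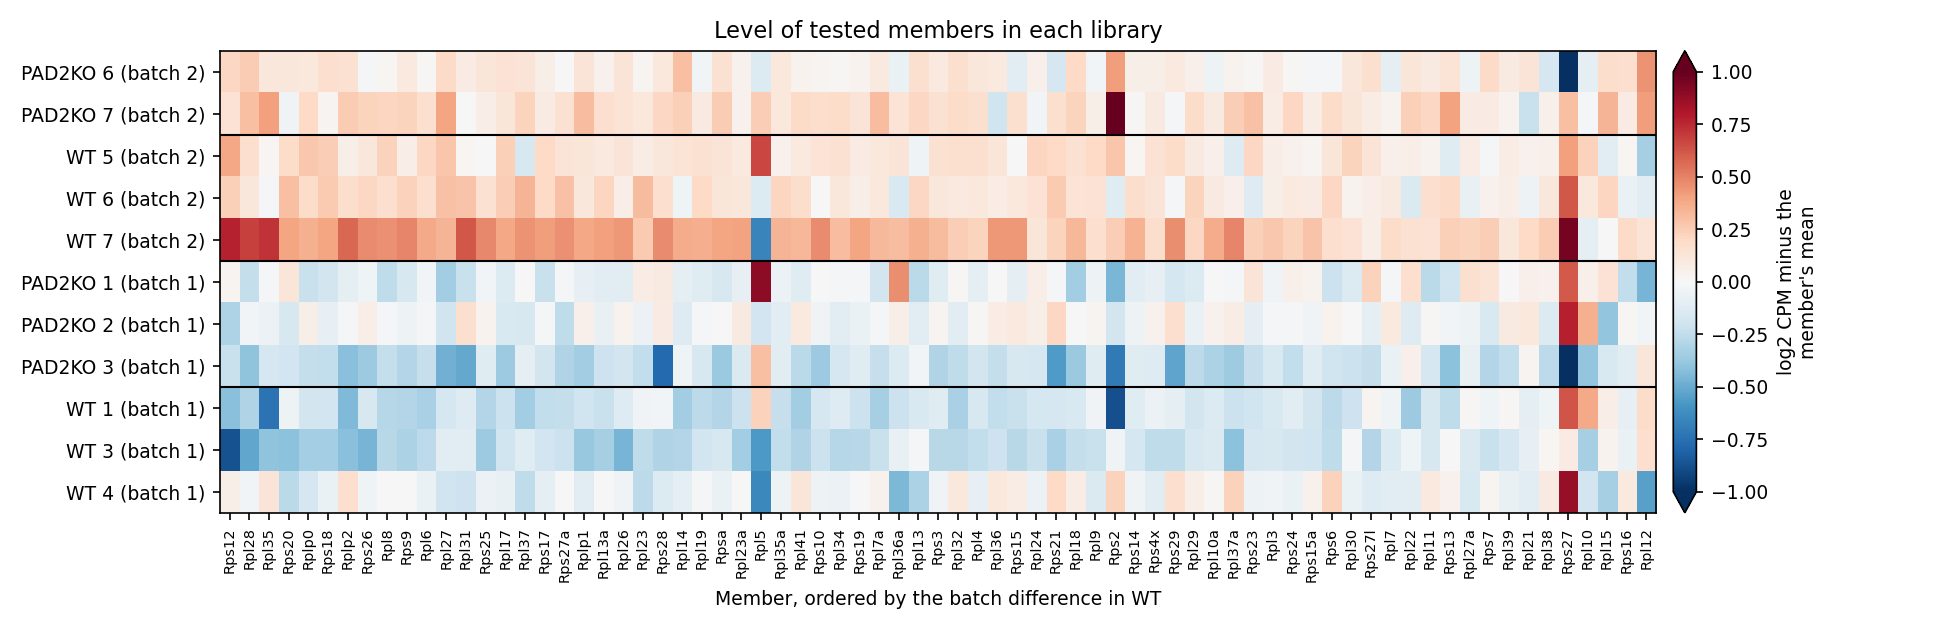
Level of 73 of the 77 tested members (columns) in each library (rows), as log2 CPM minus the member's mean over libraries; colours are capped at 1 in either direction. Batch 2 rows are mostly red and batch 1 rows mostly blue; Rps27 is far below its mean in PAD2KO 6 and PAD2KO 3, Rps2 stands out in PAD2KO 7 and Rpl5 varies without regard to batch.

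In WT fibroblasts, ribosomal protein mRNAs were higher in batch 2 than in batch 1 across both subunits. Of the 77 tested members 43 rose and none fell (edgeR's quasi-likelihood test, Benjamini-Hochberg adjusted p under 0.05 over 9932 genes), against 11.7% of all tested genes called higher. The median log2 fold change of members was 0.34, against -0.00 for all genes, and 76 of 77 estimates were positive. The 43 were 26 of 46 large and 17 of 31 small subunit members. For 50 members every batch 2 library lay above every batch 1 library, against 18.7% of all genes. Of all libraries, WT 7 was the highest for 57 of the 77 members and WT 3 the lowest for 28. The count of risen members fell to 18 without WT 3, to 26 without WT 7 and to 28 without WT 1, and it was 28 when gene lengths were used as offsets. Of the 43 calls, 15 were kept whichever library was left out. What the batches differed in cannot be told apart from the batch itself.

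The largest difference in WT was that of Rps12, a small subunit protein. It had 159, 145 and 208 CPM in batch 2, against 91.5, 66.9 and 127 CPM in batch 1, so that the groups did not overlap. The log2 fold change was 0.84 (SE 0.19, adjusted p = 0.00341). Rpl28, on the large subunit, averaged 135 ± 31.3 CPM in batch 2 and 88.0 ± 14.96 CPM in batch 1 (SD, n = 3 each), a log2 fold change of 0.60 (SE 0.15, adjusted p = 0.00504), a call that was lost without WT 3. Rps20 had a log2 fold change of 0.53 (adjusted p = 0.00114). Rpl35 reached 0.55 with a wider error (SE 0.21, adjusted p = 0.067). At the other end stood Rps27 (0.11), Rpl10 (0.11), Rpl15 (0.10), Rps16 (0.07) and Rpl12 (-0.09), none of which passed the test.

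In PAD2KO fibroblasts the same comparison gave 10 members that rose and none that fell, against 9.52% of all genes called higher; the members' share lies near that background. The median of members was 0.22, against -0.02 for all genes, and 71 of 77 estimates were positive. For 45 members both batch 2 libraries lay above all 3 batch 1 libraries, against 22.4% of all genes. Among the 10 were Rpl14, Rpl17, Rpl18, Rpl27, Rpl28, Rps2, Rps13 and Rpsa. The number was 1 without PAD2KO 3, 1 without PAD2KO 7, 4 without PAD2KO 6, 6 without PAD2KO 1 and 5 with gene lengths as offsets. Of the 10 calls 1, that of Rpl27, was kept whichever library was left out; those of Rpl14, Rpl17, Rpl18, Rpl28, Rps2, Rps13 and Rpsa were each lost without PAD2KO 3 and without PAD2KO 7. With 1 library left in batch 2, that library is assumed to vary like the other groups.

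Rps2, a small subunit protein near the mRNA entry channel, had the largest difference in PAD2KO. It had 617 and 1073 CPM in batch 2, against 336, 407 and 283 CPM in batch 1. The PAD2KO 7 library stood far above all others. The log2 fold change was 1.304 (SE 0.36, adjusted p = 0.0435). Without PAD2KO 7 it was 0.84 (adjusted p = 0.273), and the call was kept in 3 of the 11 fits that left out a library: it was also lost without PAD2KO 1, 2 or 3 or without WT 3, 5, 6 or 7. Rpl27, on the large subunit, had 177 and 204 CPM in batch 2, against 122, 135 and 111 CPM in batch 1, a log2 fold change of 0.63 (SE 0.13, adjusted p = 0.000661). Rps13 averaged 380 ± 48.9 CPM in batch 2 (SD, n = 2) and 272 ± 35.4 CPM in batch 1 (SD, n = 3), a log2 fold change of 0.48 (SE 0.14, adjusted p = 0.0133). Rpl28 had a log2 fold change of 0.49 (adjusted p = 0.0445), Rpl18 of 0.44 (adjusted p = 0.0162), Rpl14 of 0.36 (adjusted p = 0.0455) and Rpl17 of 0.35 (adjusted p = 0.0331). Rpl12 reached 0.53 with an adjusted p of 0.105. The lowest estimates were those of Rps27 (-0.47), Rpl5 (-0.32), Rpl36a (-0.11), Rpl21 (-0.10) and Rpl10 (-0.09), and none passed the test.

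The WT and PAD2KO comparisons share no library. In both, 7 members rose, among them Rpl14, Rpl17, Rpl27, Rpl28 and Rpsa. These 7 are 70.0% of the members called in PAD2KO and 16.3% of those called in WT. Over all tested genes, 584 were called higher in both genotypes, which is 61.7% of the genes called higher in PAD2KO and 50.3% of those in WT. No member called in WT had a negative estimate in PAD2KO, 70 of 77 were positive in both genotypes and 31 were called in neither. The batch differences were set beside the runs of C and T at the starts. In PAD2KO, 4 of 34 members with a run and 3 of 23 without one rose, with medians of 0.22 and 0.22. In WT the counts were 18 of 34 and 12 of 23, with medians of 0.34 and 0.33.

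**Figure D3:**
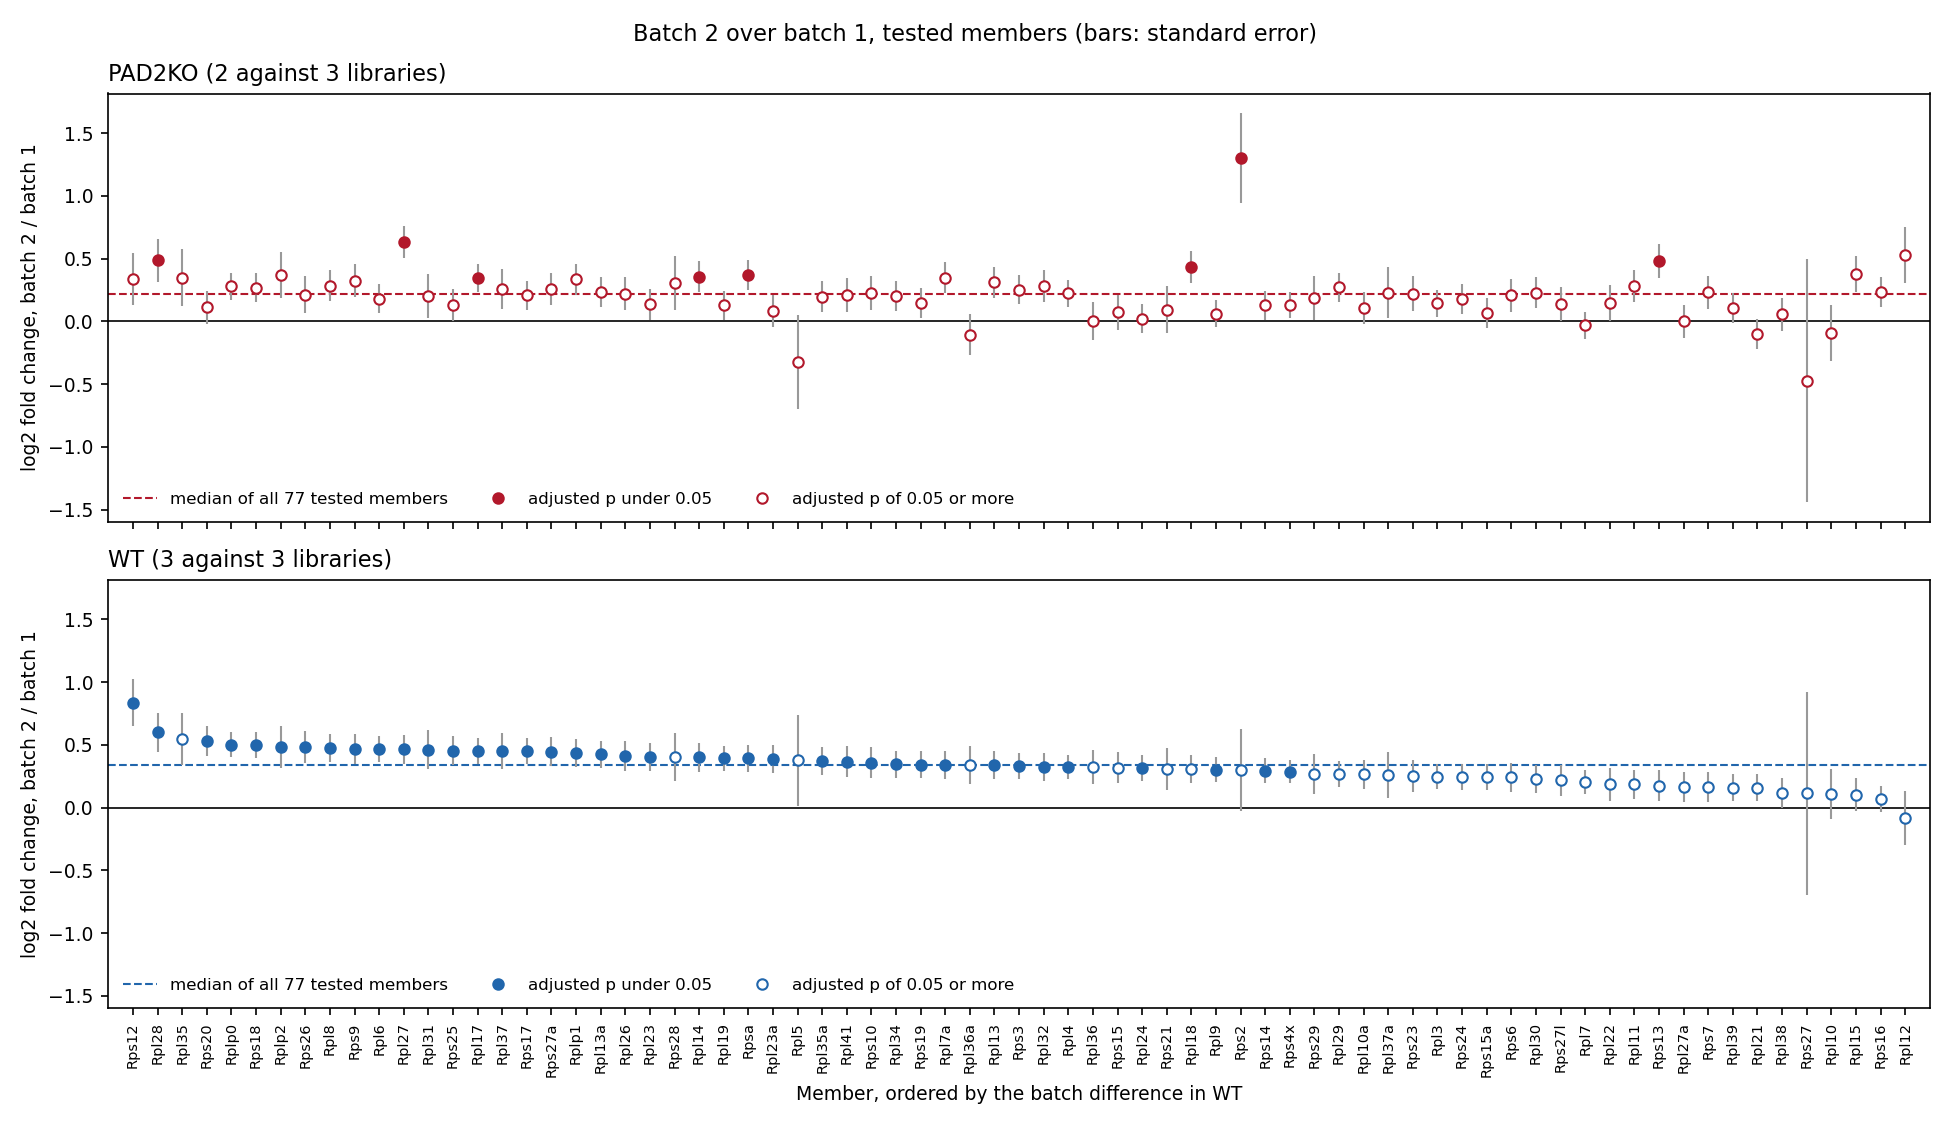
Log2 fold change of batch 2 over batch 1 for 73 of the 77 tested members in PAD2KO (top) and WT (bottom), ordered by the WT value, with the standard error; filled points passed an adjusted p of 0.05 and the dashed line is the median of all 77. In PAD2KO 8 points are filled and 67 lie above 0; in WT 39 are filled and 72 lie above 0.

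By role, the proteins of the stalk, which binds elongation factors, were Rplp0, Rplp1 and Rplp2. All 3 passed the test in WT, with log2 fold changes of 0.50 (adjusted p = 0.000376), 0.43 (adjusted p = 0.0056) and 0.48 (adjusted p = 0.0495). The call of Rplp1 was lost without WT 3. That of Rplp2 was kept in 3 of the 11 fits that left out a library, with values of 0.32 to 0.71, and it was lost without PAD2KO 1, 2, 6 or 7 or without WT 1, 3, 6 or 7. In PAD2KO their estimates were 0.28, 0.34 and 0.37, none past the test. Rplp0 had 1992 and 2128 CPM in the PAD2KO libraries of batch 2, against 1594, 1928 and 1571 CPM in those of batch 1. In WT it had 2239, 2107 and 2370 CPM in batch 2, against 1634, 1463 and 1648 CPM in batch 1. Rpsa, a small subunit protein also known as the laminin receptor, rose by 0.37 in PAD2KO (adjusted p = 0.0303) and by 0.39 in WT (adjusted p = 0.00882) on the log2 scale. It averaged 1053 ± 50.4 CPM (SD, n = 2) in batch 2 and 813 ± 103 CPM (SD, n = 3) in batch 1 in PAD2KO. In WT it averaged 1068 ± 119 CPM in batch 2 and 813 ± 64.9 CPM in batch 1 (SD, n = 3 each). Rpl41 rose in WT (0.37, adjusted p = 0.0288) and had an estimate of 0.21 in PAD2KO. The WT call of Rpsa was lost without WT 1 or WT 7, and that of Rpl41 without WT 1, 3, 6 or 7.

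Rpl5 and Rpl11 form a particle with the 5S rRNA and, when free of ribosomes, bind Mdm2. Neither passed the test in either genotype. Rpl11 had estimates of 0.28 in PAD2KO and 0.19 in WT. Rpl5 had 26.3 and 34.2 CPM in the PAD2KO libraries of batch 2, against 53.8, 25.3 and 35.6 CPM in those of batch 1. In WT it had 45.8, 26.2 and 18.3 CPM in batch 2, against 33.9, 19.4 and 18.5 CPM in batch 1. Its groups overlapped in both genotypes, and the 95% interval of its log2 fold change ran from -1.13 to 0.48 in PAD2KO and from -0.39 to 1.15 in WT. Rps6, the target of the S6 kinases, had estimates of 0.21 in PAD2KO and 0.24 in WT, and Rpl3, which sits near the peptidyl transferase centre, 0.14 and 0.25; neither passed the test. The X-linked Rps4x rose in WT (0.29, adjusted p = 0.0277; lost without WT 3, 4, 5 or 6) with an estimate of 0.13 in PAD2KO. Rpl22 had estimates of 0.15 and 0.19, Rpl39 of 0.11 and 0.16, and Rps27l, a p53-responsive relative of Rps27, of 0.14 and 0.22, in PAD2KO and WT in turn, and none of these passed the test.

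Between genotypes no member passed the test. In batch 1, none of the 77 was called in PAD2KO against WT, where 0.131% of all genes were called. At an unadjusted p under 0.05 there was 1 member by edgeR, Rpl36a, and 1 by DESeq2, which also called none. By edgeR, 5.49% of all tested genes had such a p. The median log2 fold change was 0.05, with 58 positive estimates, against -0.00 for all genes. The 95% interval lay within a 1.5-fold change in either direction for 71 members. Rpl36a had 243, 183 and 160 CPM in the PAD2KO libraries, against 151, 167 and 129 CPM in the WT libraries, so that the groups overlapped. Its log2 fold change was 0.39 (SE 0.15, adjusted p = 0.701). Rpl5 had 0.66 (SE 0.34), Rpl35 0.21, Rps12 0.20 and Rpl22 0.20. The lowest were Rps27 (-0.42, SE 0.82), Rps2 (-0.28), Rpl27 (-0.17), Rps13 (-0.14) and Rpl38 (-0.14). The adjusted p of these 10 ran from 0.701 to 0.994. Leaving out WT 3 gave Rps12 an estimate of -0.00, and leaving out PAD2KO 3 gave Rps27 one of 0.14.

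In batch 2, none of the 77 was called in PAD2KO against WT either, where 3.11% of all genes were called. At an unadjusted p under 0.05 there was 1 member by edgeR, Rpl12, and 1 by DESeq2, which called none. By edgeR, 14.4% of all tested genes had such a p. The median was -0.08, with 58 negative estimates, against -0.01 for all genes. The interval lay within a 1.5-fold change for 69 members. Rpl12, on the large subunit, had 55.8 and 54.8 CPM in the PAD2KO libraries, against 32.5, 38.1 and 45.1 CPM in the WT libraries. The groups did not overlap, and the log2 fold change was 0.54 (SE 0.23, adjusted p = 0.256). Of all 9932 tested genes, 1535 had every PAD2KO library above every WT library in batch 2, and 1556 had every PAD2KO library below. Among the 77 members the numbers were 2 and 15. Summed with its near-identical copies, Rpl12 had a difference of 0.06 (adjusted p = 0.9). Rps2 had 617 and 1073 CPM in PAD2KO, against 560, 425 and 546 CPM in WT, a log2 fold change of 0.73 (SE 0.36, adjusted p = 0.429). Rpl15 (0.22), Rps13 (0.17) and Rpl22 (0.16) followed. The lowest were Rps27 (-1.001, SE 0.97), Rps12 (-0.29), Rpl31 (-0.27), Rpl36 (-0.26) and Rps20 (-0.25), with adjusted p of 0.394 to 0.731. The members fixed for every comparison, from Rpsa and the stalk genes to Rpl22, were among the uncalled in both batches.

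**Figure D4:**
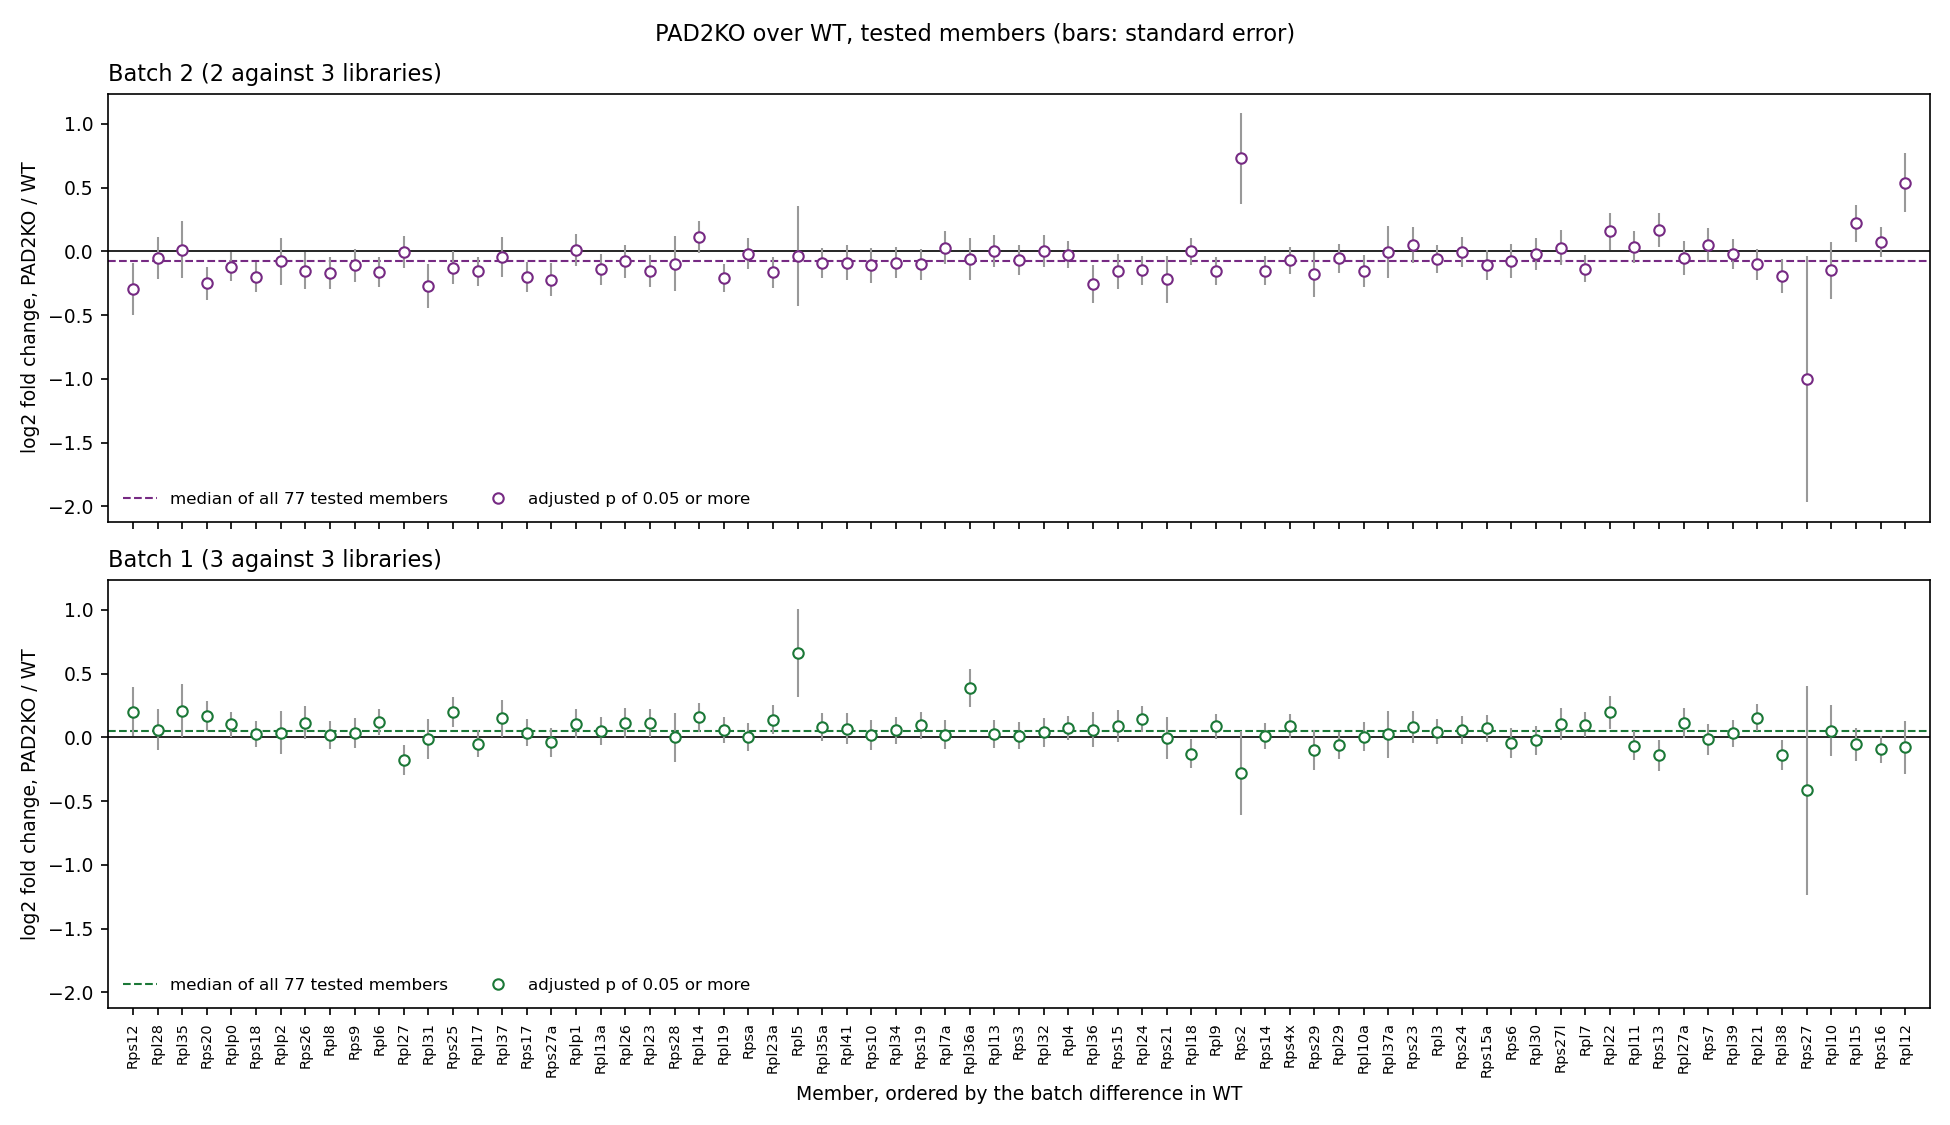
Log2 fold change of PAD2KO over WT for 73 of the 77 tested members in batch 2 (top) and batch 1 (bottom), in the order of the WT batch difference, with the standard error; the dashed line is the median of all 77. No point passed an adjusted p of 0.05, the medians are -0.08 in batch 2 and 0.05 in batch 1, and Rps27 has the widest errors.

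Over both batches, with equal weight to each, no member was called in PAD2KO against WT, where 0.957% of all genes were called. No member had an unadjusted p under 0.05 by edgeR or by DESeq2, and DESeq2 called none. By edgeR, 10.2% of all tested genes had such a p. The median was -0.01, and 74 of 77 intervals lay within a 1.5-fold change. The extremes were Rpl5 (0.31), Rpl12 (0.23), Rps2 (0.23), Rpl22 (0.18) and Rpl36a (0.16) at the top and Rps27 (-0.71), Rpl38 (-0.16), Rpl31 (-0.14), Rps29 (-0.14) and Rps27a (-0.13) at the bottom. Rps27a encodes ubiquitin fused to a small subunit protein. The genotype difference was also compared between batches. None of the 77 was called, where 1.62% of all genes were called, and 1 had an unadjusted p under 0.05 by edgeR and 2 by DESeq2, which called none. By edgeR, 11.6% of all tested genes had such a p. The median of this difference of differences, batch 2 minus batch 1, was -0.16, with 64 negative estimates, against -0.01 for all genes. The member by edgeR was Rps20 (-0.42, adjusted p = 0.319). The others at the ends were Rpl5 (-0.70), Rps27 (-0.58), Rps12 (-0.50) and Rpl36a (-0.45), and Rps2 (1.01), Rpl12 (0.62), Rps13 (0.31), Rpl15 (0.27) and Rpl27 (0.17). The smaller number of risen members in PAD2KO than in WT is thus not shown to be a difference between the genotypes.

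Ribosomal protein mRNAs have often been copied back into the genome, and reads from identical copies cannot be told apart. Rps27, on chromosome 3, and the retrogene Rps27rt, on chromosome 9, have the same reading frame. Both are 255 bases long, in GENCODE transcripts on GRCm38, and identical at all 255. The shared frame is shown because a read inside it fits both genes; capitals mark its start and stop codons.
Rps27 and Rps27rt: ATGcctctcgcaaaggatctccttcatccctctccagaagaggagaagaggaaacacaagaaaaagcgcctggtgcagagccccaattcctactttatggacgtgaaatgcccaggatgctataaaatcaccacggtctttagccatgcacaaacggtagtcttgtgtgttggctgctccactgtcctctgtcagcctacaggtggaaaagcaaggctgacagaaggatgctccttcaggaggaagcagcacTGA
Rps27 had 75 and 267 counts in the PAD2KO libraries of batch 2, against 311, 333 and 312 in the WT libraries. It had 328, 420 and 17 counts in the PAD2KO libraries of batch 1, against 338, 254 and 391 in the WT libraries. PAD2KO 6 and PAD2KO 3 stood far below the rest. Rps27rt had 197 counts in PAD2KO 6 and 312 in PAD2KO 3, 38 in PAD2KO 1, 75 in WT 3 and 0 in the other 7 libraries. The sum of both was 272 and 267 counts in PAD2KO and 311, 333 and 312 in WT of batch 2. In batch 1 it was 366, 420 and 329 counts in PAD2KO and 338, 329 and 391 in WT. The within-group SD was 1.44 for Rps27 and 0.198 for the sum, on the log2(CPM + 1) scale without further scaling. Fitted as the sum, PAD2KO against WT differed by -0.33 (SE 0.15, adjusted p = 0.299) in batch 2 and by 0.03 (SE 0.13, adjusted p = 0.995) in batch 1.

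**Figure D5:**
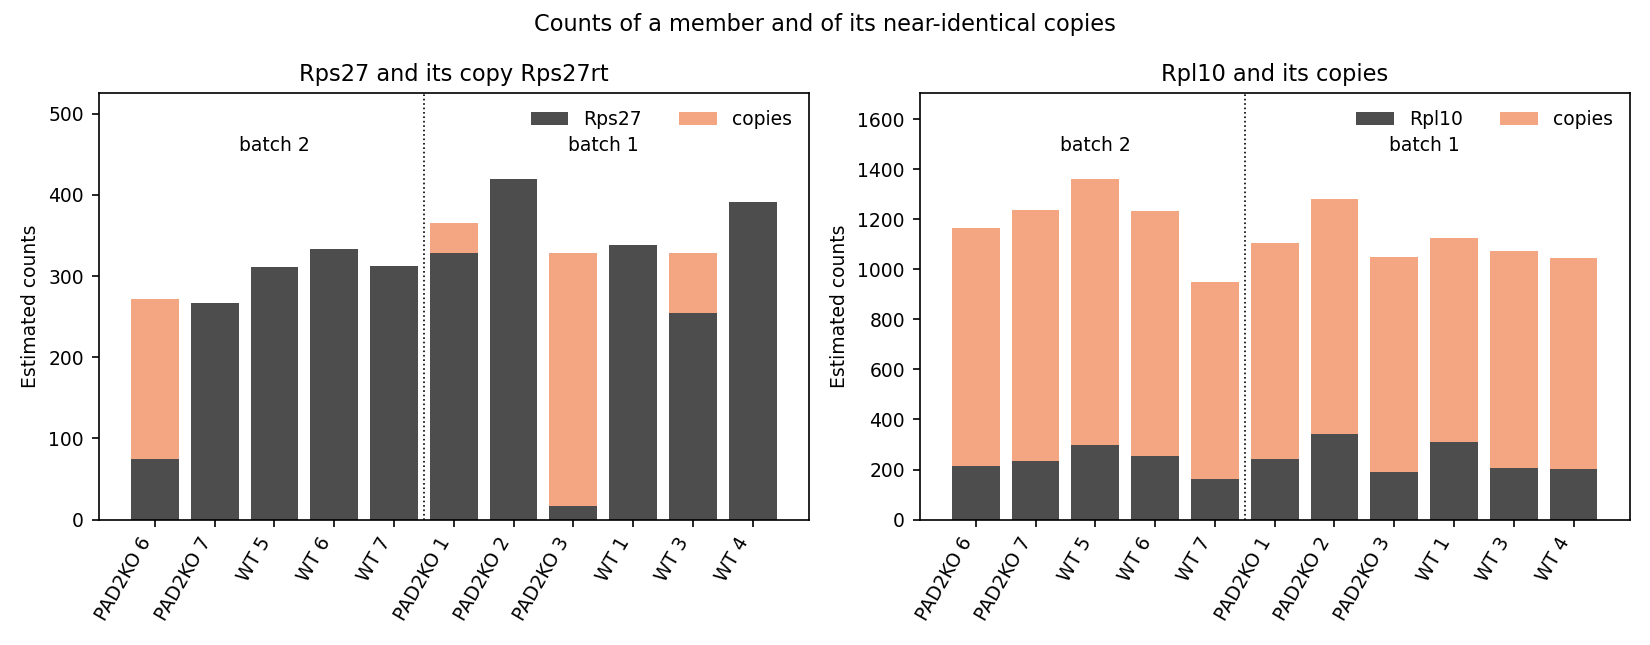
Estimated counts of Rps27 and Rpl10 (dark) and of their near-identical copies (light, stacked on top) in each library, batch 2 on the left. Rps27 has 75 counts in PAD2KO 6 and 17 in PAD2KO 3, where the copy has 197 and 312, while most of the counts of Rpl10 lie on copies in all 11 libraries.

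The search for copies that matched at least 95% of bases over at least 80% of a member's reading frame found 361 annotated copies of 67 members, 244 of them with counts and 23 with over 150 counts in all. They held 10.4% to 12.1% of the counts of members and copies together. For 15 members at least 20% of the summed counts lay on copies. Rpl12 gave 89.0% of its sum to copies, mainly Gm10275 on chromosome 10, whose frame of 498 bases is identical. Rpl10, the X-linked gene of a late-joining large subunit protein, gave 79.0%, mainly to Rpl10-ps3 on chromosome 9, whose 645 bases are identical. The shares were 61.7% for Rpl27a, 59.1% for Rps12, 55.7% for Rpl37, 55.4% for Rpl28 and 55.2% for Rps23. All 15 had a smaller within-group SD as sums than as single genes. A sum holds more counts, which by itself lowers the counting error, so the smaller SD cannot show where the reads belong. Members with a smaller share on copies went both ways. Rpl13 had an SD of 0.149 alone and 0.0913 summed, and Rpl17 had 0.0853 and 0.116.

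Rpl37 shows how little can separate a pair. Its frame differs from that of Rpl37rt at 1 of 294 bases, G249A, with the base of Rpl37 first and positions counted from the start codon. The stretches around that base are given with it in capitals.
Rpl37, chromosome 15: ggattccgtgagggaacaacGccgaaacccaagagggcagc
Rpl37rt, chromosome 5: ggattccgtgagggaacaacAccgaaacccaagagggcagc
A read inside the frame that does not cross this base fits both genes, and the levels of both are uncertain. With copies added to their members, a choice made after the data had been seen, 50 members rose in WT and 12 in PAD2KO between batches, and none was called between genotypes. The share of all genes called higher in that fit is not given here, so the 12 in PAD2KO cannot be read as above background. Rps12 then had log2 fold changes of 0.39 in PAD2KO (adjusted p = 0.0462) and 0.51 in WT (adjusted p = 0.00306). Rpl12 had 0.44 (adjusted p = 0.0132) and 0.51 (adjusted p = 0.00115), where Rpl12 alone had 0.53 and -0.09. Rpl10 as a sum had 0.18 and 0.26, neither past the test. Rps27 as a sum had -0.35 (adjusted p = 0.0963) and 0.01. Rps2, whose copies took 0.591% of its summed counts, kept 1.31 in PAD2KO (adjusted p = 0.0434).

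Other genes of ribosome production were compared between batches in the same fit, in which 9.52% of all tested genes rose and 9.13% fell in PAD2KO, and 11.7% rose and 10.6% fell in WT. Of the 6 ribosomal genes outside the naming rule, 2 rose and none fell in PAD2KO (median 0.16), and in WT 3 rose and 1 fell (median 0.36). Rpl36al, a large subunit gene close to Rpl36a, averaged 172 ± 17.1 CPM (SD, n = 2) in batch 2 and 115 ± 8.66 CPM (SD, n = 3) in batch 1 in PAD2KO. In WT it averaged 181 ± 10.5 CPM in batch 2 and 115 ± 2.04 CPM in batch 1 (SD, n = 3 each). Its log2 fold changes were 0.57 (adjusted p = 0.00194) in PAD2KO and 0.66 (adjusted p = 9.26e-05) in WT. Rack1, a signalling scaffold on the small subunit, rose by 0.45 on the log2 scale in PAD2KO (adjusted p = 0.00487) and by 0.45 in WT (adjusted p = 0.00135). Fau, whose product includes a small subunit protein, rose in WT (0.60, adjusted p = 0.000574).

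Of 23 other mRNAs known for a TOP motif, 7 (30.4%) rose in PAD2KO and 9 (39.1%) in WT, and none fell, with medians of 0.26 and 0.26. Pabpc1, the poly(A)-binding protein, had 0.68 (adjusted p = 6.14e-05) in PAD2KO and 0.79 (adjusted p = 7.56e-07) in WT. Npm1, a nucleolar chaperone, had 0.60 in PAD2KO (adjusted p = 0.000134), and Eef1b2, an elongation factor subunit, had 0.56 in WT (adjusted p = 0.000108). Of 59 tested factors of ribosome biogenesis, 20 (33.9%) rose in PAD2KO and 15 (25.4%) in WT, and none fell, with medians of 0.44 and 0.32. Nop2, an rRNA methyltransferase, averaged 128 ± 5.60 CPM (SD, n = 2) in batch 2 and 62.2 ± 1.85 CPM (SD, n = 3) in batch 1 in PAD2KO. In WT it averaged 109 ± 5.66 CPM in batch 2 and 67.03 ± 2.71 CPM in batch 1 (SD, n = 3 each). Its log2 fold changes were 1.04 (adjusted p = 3.98e-06) and 0.70 (adjusted p = 0.000155). Nop56, of the box C/D snoRNP, had 0.77 (adjusted p = 7.84e-05) in PAD2KO and 0.71 (adjusted p = 3.7e-05) in WT.

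Of 25 further initiation factors, 7 (28.0%) rose in PAD2KO and 6 (24.0%) in WT, none fell, and the medians were 0.32 and 0.17. Eif5a had 0.62 (adjusted p = 0.000188) in PAD2KO and 0.49 (adjusted p = 0.000593) in WT. Of 16 genes of RNA polymerase I and its factors, 1 (6.25%) rose and 1, Taf1b, fell in PAD2KO, against 9.52% and 9.13% of all genes, and 3 (18.8%) rose in WT, against 11.7%. Of 14 snoRNA host genes, 3 rose in each genotype and none fell, with Snhg8 at 0.96 in PAD2KO (adjusted p = 0.0116) and 1.00 in WT (adjusted p = 0.00244). The proteins of the mitochondrial ribosome, encoded in the nucleus, served as a second set of ribosomal genes. Of 77 tested, 3 (3.90%) rose in PAD2KO and 7 (9.09%) in WT, below the 9.52% and 11.7% of all genes; none fell, and the medians were 0.05 and 0.12. Mrps6 had 0.75 (adjusted p = 0.000387) and 0.81 (adjusted p = 3.18e-05).

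Among the regulators, 24 genes of the mTORC1 pathway held 1 that rose (4.17%) and 3 that fell (12.5%) in PAD2KO, and 2 that rose and 2 that fell (8.33% each) in WT. Over all genes 9.52% rose and 9.13% fell in PAD2KO, and 11.7% rose and 10.6% fell in WT, so the counts of this pathway lie near the background. Sesn2, a leucine sensor that inhibits mTORC1, rose by 0.67 in PAD2KO (adjusted p = 0.041) and by 0.75 in WT (adjusted p = 0.0084) on the log2 scale. Of 7 genes of the Myc family, 1 rose and 1 fell in each genotype. Myc, which drives ribosome production, rose by 0.96 in PAD2KO (adjusted p = 0.000425) and by 0.82 in WT (adjusted p = 0.000963), and its antagonist Mxd4 fell by 0.87 (adjusted p = 0.00992) and by 0.67 (adjusted p = 0.0157). Of 17 genes of the integrated stress response, 6 (35.3%) rose and 1 fell in PAD2KO, and 7 (41.2%) rose and 1 fell in WT, against 9.52% and 11.7% of all genes that rose. Psat1, of serine synthesis, had 1.02 (adjusted p = 4.88e-06) and 0.90 (adjusted p = 5.82e-06). Of 19 p53 targets, 10 (52.6%) rose and 1 fell in PAD2KO, and 12 (63.2%) rose and 1 fell in WT. Mdm2, the ubiquitin ligase of p53, had 0.93 (adjusted p = 3.36e-06) and 1.03 (adjusted p = 5.87e-08). Between genotypes, none of these genes was called but Eif2ak2, an interferon-induced kinase of the stress response, which was lower in PAD2KO than in WT in batch 2 (-0.94, adjusted p = 0.0353).

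Cell type markers also differed between the batches. Of 12 tested fibroblast markers, 2 rose and 7 fell in PAD2KO, and none rose and 6 fell in WT. Over all tested genes 9.52% rose and 9.13% fell in PAD2KO, and 11.7% rose and 10.6% fell in WT. Those that rose in PAD2KO were Thy1 (0.88, adjusted p = 0.00077) and Vim (0.50, adjusted p = 0.00391), with estimates of 0.14 and 0.21 in WT that did not pass the test. Col1a1, Col1a2, Col3a1, Pdgfrb, Postn and Tcf21 fell in both genotypes and Dcn in PAD2KO. The sum of 10 haematopoietic markers was 65.0 to 121 CPM in PAD2KO of batch 2 and 178 to 291 CPM in WT of batch 2, against 21.8 to 51.5 CPM in PAD2KO of batch 1 and 16.1 to 57.6 CPM in WT of batch 1. Of the 3 that were tested, S100a8 alone rose in both genotypes and none fell. S100a8 had 57 and 26 counts in PAD2KO and 189, 169 and 62 in WT of batch 2, against 0 or 1 in batch 1. WT 7 had 153 counts of Lyz2 and 42 of Adgre1, against 9 to 59 and 0 to 17 in the other libraries. Ptprc had 1 or 2 counts in batch 2 libraries and 0 to 4 in batch 1 libraries. Cd3e and Cd79a had 0 or 1 count, and Hba-a1 was at 0 in all libraries. The sum of 9 smooth muscle and pericyte markers was 4082 to 5173 CPM in PAD2KO and 1469 to 1905 CPM in WT of batch 2, against 5022 to 7892 CPM in PAD2KO and 6696 to 7374 CPM in WT of batch 1. Most of this sum was Acta2, with 1047 to 8290 counts a library. Of the 7 tested, none rose and 2 fell in PAD2KO, and none rose and 6 fell in WT. Not all 9 were lower in WT of batch 2: Rgs5 had 10, 9 and 12 counts there, against 1, 5 and 2 in WT of batch 1. Cspg4 had 3, 0 and 10 counts, against 2, 1 and 1. The sum of 5 mesothelial markers was 39.4 to 83.2 CPM in batch 2 and 85.8 to 335 CPM in batch 1, with Krt5 at 0. The summed epithelial markers were 31.2 to 47.6 CPM in batch 2 and 18.3 to 38.0 CPM in batch 1. The 1 epithelial marker that was tested rose in both genotypes, with log2 fold changes of 1.01 in PAD2KO and 0.83 in WT. Markers also differed between genotypes in batch 2, where 3.11% of all genes were called. Of 7 tested smooth muscle and pericyte markers, 3 were higher in PAD2KO than in WT. Of the 12 fibroblast markers 1 was higher and 2 were lower, of 4 mesothelial markers 1 was higher, and of 3 haematopoietic markers 1 was lower. In batch 1 no marker was called between genotypes. The part of these markers in the batch difference of the ribosomal protein genes was not tested. In bulk RNA, fewer cells of a type and less RNA per cell cannot be told apart.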

How the data were processed

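Bulk RNA-seq of 11 libraries was measured; SmartSeq2 libraries were prepared with SMARTer reagents, per the labels' protocols. The authors deposited estimated counts, TPM values (scaled to length and library) and effective lengths in one table. The submitters' processing notes list GRCm39 as the build and name fastp, Salmon 1.3.2 and DESeq2 1.46.0; sources used here give no annotation. Without molecular identifiers, the limit for a count of 0 covers counting error only; intervals of fold changes come from the fit and include the spread between libraries. The estimates split reads that match several genes.

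Of 56065 entries, 23133 without a symbol (3.80% to 6.40% of counts) stayed out. The others were summed to 32868 symbols and rounded. All 11 libraries were fitted with edgeR 4.0.16 (R 4.3.3; TMM, filterByExpr on genotype, robust quasi-likelihood, a mean for each of 4 groups), with contrasts between groups and Benjamini-Hochberg adjustment over 9932 genes at 0.05. CPM are TMM-scaled. Copies were sought with BLAST+ 2.17.0 among GENCODE M21 transcripts (GRCm38), and sequences are GENCODE or RefSeq ones on GRCm38, not the authors' build, so no coordinate was joined to the counts. Alternatives were DESeq2 1.42.0, other scalings and filters, length offsets, a replicate block, each library left out and copies summed into members.

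Named were the 5 highest and 5 lowest members of each comparison, all called members where there were at most 10, a set of members with known roles, and up to 3 genes of each other list by smallest p. Some genes that this rule names are not reported here, and figures leave out 4 tested members. Rpl37, Gm10275 and other copies were named after their values were seen. The members and lists were chosen with earlier results of these data known.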

Additional observations from a re-analysis of the deposited data

How the results depend on the processing

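In every alternative run, no member was called between genotypes in either batch, over both batches or in the difference between batches. Between batches in WT, 43 members were called, 37 by DESeq2, 40 with nearly no filter, 28 with length offsets and 18 to 44 when each library was left out in turn; in PAD2KO it was 10, then 8, 13, 5 and 1 to 13. None of the 53 calls between batches changed direction; 15 of them passed the threshold in every alternative, among them Rps12 and Rplp0 in WT and Rpl27 in both genotypes, and 168 of 1060 repeats of a call no longer did. Samples with the same number did not deviate together (correlations of 0.00 to 0.03), so the numbers were not treated as pairs; with a replicate block no member was called between genotypes, with medians of 0.06 in batch 1, -0.12 in batch 2, -0.02 over both and -0.18 for their difference. Without Rn18s in the total the members' share was 3.88% in PAD2KO and 4.09% in WT of batch 2, and 3.42% and 3.31% in PAD2KO and WT of batch 1; by TPM it was 10.7%, 10.99%, 9.67% and 9.46% in the same order.

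Estimates of members that were not called changed sign as follows. For PAD2KO against WT in batch 1, Rpl35 had -0.051 with length offsets, Rps12 had -0.038 with copies summed and -0.0039 to 0.47 when leaving out each library, and Rps27 had 0.035 with copies summed and -0.90 to 0.14 when leaving out each library. In batch 2, Rps13 had -0.025 with copies summed. For batch 2 against batch 1 in WT, leaving out each library gave Rpl5 -0.073 to 0.70, Rpl10 -0.030 to 0.35, Rpl12 -0.28 to 0.035, Rpl15 -0.014 to 0.18, Rps16 -0.00073 to 0.13 and Rps27 -0.079 to 0.29; Rpl12 had 0.51 with copies summed (adjusted p = 0.00115). In PAD2KO it gave Rpl10 -0.27 to 0.10, Rpl21 -0.29 to 0.059, Rpl36a -0.23 to 0.082 and Rps27 -1.64 to 0.16; Rpl10 had 0.18 with copies summed. For the difference between batches, copies summed gave -0.072 for Rpl12, -0.012 for Rpl15 and -0.014 for Rps13, and leaving out each library gave Rps27 -1.74 to 0.044. With copies summed, the counts fitted differ by construction, and with a library left out, fewer libraries were fitted; for the length offsets the cause was not tested. Depth was lowest for Rpl5, with 17 to 67 counts a library.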

Other observations

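Some values of single libraries were not tied to a group. Rps28, a small subunit gene, had 194 CPM in PAD2KO 3, against 271 to 463 CPM in the other 10 libraries. Rps2 ran over all 11 libraries from 251 CPM in WT 1 to 1073 CPM in PAD2KO 7, and Rpl35 from 41.0 CPM in WT 1 to 113 CPM in WT 7. These genes were singled out after their values had been seen.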
